A study of Mus musculus with 9 samples.

Results

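The late-life change of the mouse seminal vesicle was taken as the comparison of 3 libraries at 21 months with 3 libraries at 3 months, 6 of the 9 libraries of the series. The series holds bulk RNA sequencing of total RNA from this gland at 3, 13 and 21 months of age, with 3 libraries per age, and its design asks what differs between the ages. The labels give the tissue and the age and name the assay as sequencing of long noncoding RNA. They name no strain, allele, agent or surgery, and nothing says whether the replicates of an age came from separate mice, so that p-values measure only the spread between these libraries, which may be technical. All genes past a low-count filter were compared, and genes were then sorted by whether the 3 libraries at 21 months moved alike. The 21-month replicate 1 carried prostate transcripts and replicate 2 fat transcripts, and genes that rested on either were set apart by a rule given below.

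The seminal vesicle is a paired male accessory gland. Its luminal epithelium, kept up by androgens, makes much of the fluid of the ejaculate, chiefly a family of small secreted proteins, and the epithelium lies in a wall of fibroblasts, vessels and smooth muscle. Dividing cells make a set of transcripts for the mitotic spindle, the kinetochore and the cyclins, which are switched on together late in the cell cycle and are scarce in resting tissue. Plasma cells, the last stage of the B cell line, fill their transcriptome with immunoglobulin chains, and T cells, macrophages and antigen-presenting cells patrol the stroma and the epithelium.

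The 6 libraries differed most in what else they contained. The library totals ran from 16536160 to 22523316 counts. Seminal vesicle secretory proteins made up 22.9%, 46.0% and 57.9% of the counts in 21-month replicates 1 to 3, in that order, against 59.9%, 62.3% and 61.6% at 3 months, so that the tissue carried its defining transcripts in every library and least of all in 21-month replicate 1. Prostate markers took 2.58%, 0.00811% and 0.0104% of the counts in the 21-month libraries and 0.0202%, 0.0136% and 0.0143% in those of 3 months. Tgm4, the prostate transglutaminase, had 300932 counts in 21-month replicate 1, 8 in replicate 2 and 0 in replicate 3, against 0, 3 and 0 at 3 months. Pbsn, probasin, had 108258, 3 and 0 counts at 21 months, and neither gene passed the filter to be tested. The 7 tested genes of the 16 in the prostate list went the other way, with 2 positive values and 1 call, which was lower. Their median log2 changes from the 3-month mean were -1.97, -1.47 and -0.40 in 21-month replicates 1 to 3. Adipocyte markers took 0.0596%, 0.435% and 0.00266% at 21 months and 0.00172%, 0.00468% and 0.00219% at 3 months, and Fabp4, which carries fatty acids in fat cells, reached 49.8, 584 and 1.09 CPM (counts scaled to a library of 1e+06) at 21 months, against 1.44, 4.33 and 1.31 CPM at 3 months. In a principal component analysis the first component held 41.3% of the variance, with 21-month replicates 1 and 2 at 61.0 and 63.8 and replicate 3 at 5.30. CPM values are scaled by the trimmed mean of M values (TMM) throughout. With library totals alone the median log2 fold change of all tested genes was 0.62, against 0.01 with TMM, and every change below is relative to that TMM level. In bulk tissue, fewer or more cells of a type cannot be told apart from less or more RNA per cell.

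**Figure D1:**
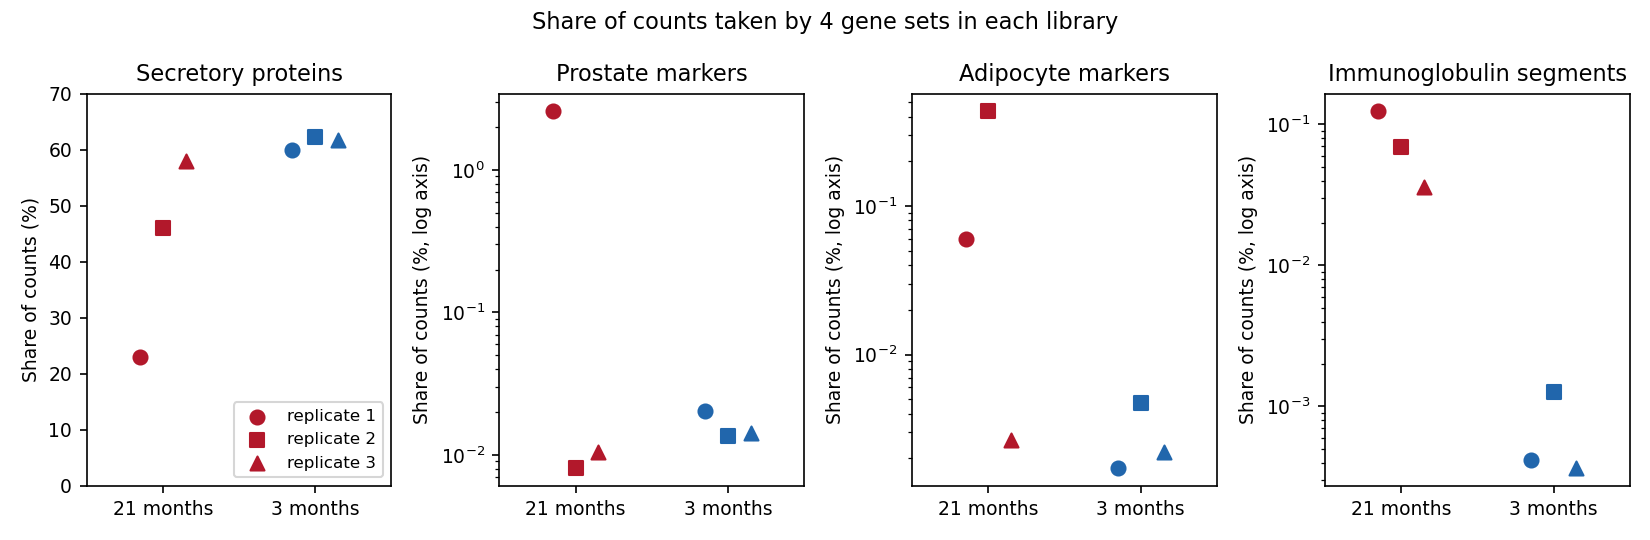
Share of all counts (%) taken by 4 gene sets in each library, with 21 months left of 3 months and 1 point per library; the 3 panels on the right have log axes. The prostate share was high in 21-month replicate 1 (2.58%), the adipocyte share was highest in replicate 2 (0.435%), and the immunoglobulin share was higher in all 3 libraries of 21 months than in any of 3 months.

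Of 16067 genes tested, 325 were called at an adjusted p under 0.05, 2.02% of those tested, in the edgeR quasi-likelihood test with Benjamini-Hochberg adjustment. Of these 202 were higher at 21 months (1.26%) and 123 were lower (0.766%). With library totals alone the split was 5597 higher and 98 lower. In all 325 the 3 libraries of 21 months lay beyond all 3 of 3 months, a pattern that 4747 of the tested genes showed (29.5%). A called gene was taken as consistent where every 21-month library stood at least 1 log2 unit from the 3-month mean on the same side, and where no library led the mean of the other libraries of its age by more than 2 log2 units. Replicates 1 and 2 together were also not allowed to lead replicate 3 by more than 2, and the ages were not to overlap. For the consistent genes below, ages that do not overlap and 3 libraries that move alike thus follow from the rule. The rule kept 190 genes (1.18%), 116 higher (0.722%) and 74 lower (0.461%). Among them 169 were protein coding and 14 were immunoglobulin segments. It set aside 135 called genes. In 132 the smallest change was under 1 log2 unit, and 3 were driven by replicate 1, replicate 2 or both. These were Ptprz1, a receptor tyrosine phosphatase of glia, with 20.3, 3.93 and 2.63 CPM in 21-month replicates 1 to 3, the choline transporter Slc5a7 with 0.557, 3.28 and 0.908 CPM, and Snhg11 with 13.7, 5.44 and 0.953 CPM. At 3 months the highest library of these genes stood at 0.552 CPM, in Ptprz1. At the edge of the rule, Ccnb2, cyclin B2, was just inside, with a smallest change of 1.01, and Cenpa, the centromeric histone, was just outside with 0.99.

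In 21-month replicate 3 neither prostate nor adipocyte markers stood out. Of the 116 consistent higher genes, 69 had their smallest change in replicate 3, 28 in replicate 1 and 19 in replicate 2. Of the 74 consistent lower genes, 19 had it in replicate 3, 30 in replicate 1 and 25 in replicate 2. No test was made on these counts. With replicate 3 as the only 21-month library, all 189 consistent genes that could be tested kept their direction. The rule asks this of each library, so nothing is read from it.

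The number of calls rested on every 3-month library. Without 3-month replicate 1, 2 or 3 the test called 2, 4 and 0 genes in all, with 2566, 3248 and 3298 genes at an unadjusted p under 0.05, against 3923 with all libraries. Leaving out 21-month replicates 1, 2 and 3 gave 471, 48 and 2349 called genes, and leaving out 13-month replicates 1, 2 and 3, which share the estimate of the spread, 135, 115 and 159. All 190 consistent genes kept the sign of their log2 fold change in each of these 9 fits, and 0 of them kept their call in all 9. The rule left the signs hardly any room to change, so nothing is read from them. Of 73 named genes, 3 of which were not called, 68, 66 and 70 lost their call without 3-month replicates 1, 2 and 3, and 42 without 21-month replicate 2.

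**Figure D2:**
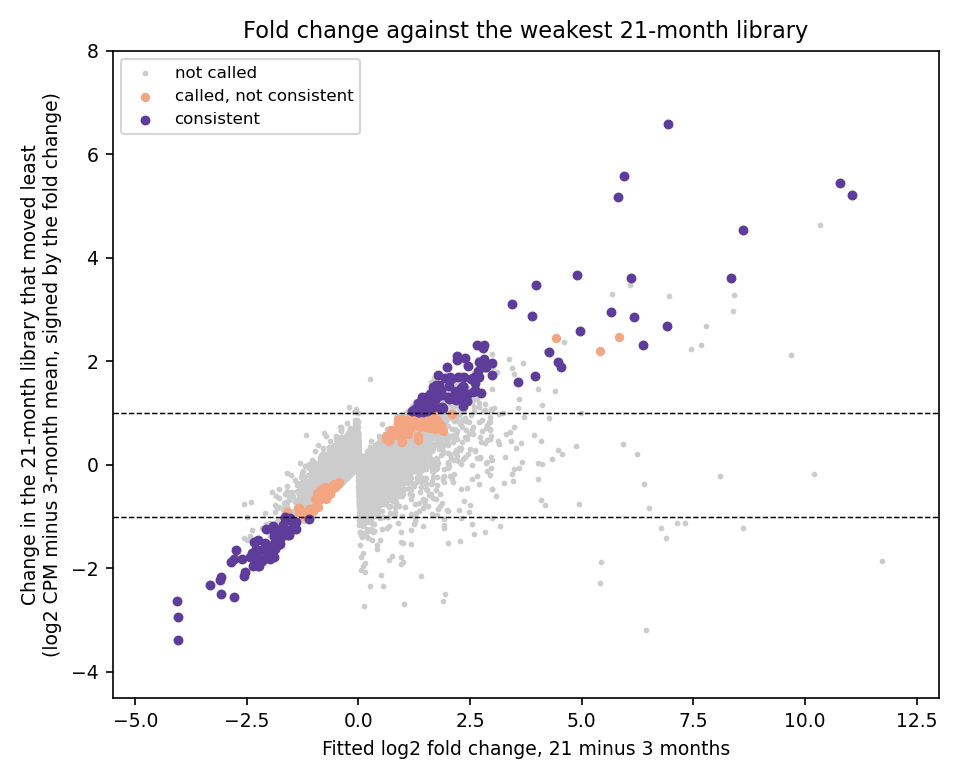
Each point is 1 of the 16067 tested genes. The horizontal axis is the fitted log2 fold change, 21 minus 3 months, and the vertical axis is the log2 change from the 3-month mean in the 21-month library that moved least, signed by the fold change; dashed lines mark changes of 1. The 190 consistent genes lie outside the dashed lines, and many genes with large fitted rises have 1 library near or below 0 and were not called.

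Genes of mitosis made up the largest block of falls among the lists. All 50 genes of the mitosis list were tested, 29 were called lower and 0 higher, and 28 of the 29 were consistent, so that this list held 28 of the 74 consistent falls. The median log2 fold change of the list was -1.66, against 0.01 over all tested genes, and 2 of its 50 genes had a positive value. The list was lower in each library on its own, with medians of -1.46, -1.58 and -1.89 log2 units from the 3-month mean in 21-month replicates 1 to 3. All 50 genes together held 0.0162%, 0.0110% and 0.00644% of the counts in the 21-month libraries and 0.0232%, 0.0236% and 0.0192% in those of 3 months. DESeq2 called 37 of the 50 lower and limma-voom 26, and at an unadjusted p under 0.05 edgeR put 45 lower and 0 higher. Library totals alone moved the median to -1.01, which was still below the 0.62 of all genes.

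The called mitotic gene with the smallest p was Nek2, a kinase that separates the centrosomes (ENSMUSG00000026622, GRCm38 chromosome 1, 191821444 to 191833050). It stood at 0.631, 0.577 and 0.590 CPM in 21-month replicates 1 to 3, against 4.20, 4.47 and 3.93 CPM at 3 months. The libraries of an age lay close together and the ages did not overlap. The fitted log2 fold change was -2.80 ± 0.22 (± SE, as in all brackets that follow; edgeR adjusted p = 0.00456), and of 21 alternatives 1 ended the call, the fit without 3-month replicate 3 (adjusted p = 0.0554). Nusap1, a microtubule-bundling protein of the spindle (chromosome 2, 119618298 to 119651244), stood at 1.37, 1.12 and 1.04 CPM at 21 months and 4.90, 5.25 and 4.07 CPM at 3 months (-1.999 ± 0.24, edgeR adjusted p = 0.0153). Ube2c, the ubiquitin-conjugating enzyme of the anaphase-promoting complex (chromosome 2, 164769898 to 164778822), stood at 0.260, 0.360 and 0.318 CPM at 21 months and 1.44, 2.06 and 2.07 CPM at 3 months (-2.54 ± 0.31, edgeR adjusted p = 0.0153). As the rule requires, all 3 genes were below their 3-month level in each library of 21 months, the prostate and fat libraries included. The annotation places Nusap1 over Oip5 and Ube2c over Tnnc2 on opposite strands, and since the sources used here do not say whether counting used strand, reads of these neighbours cannot be told apart.

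Late cell cycle promoters often carry CCAAT boxes, bound by NF-Y, and a cell cycle homology region (CHR, TTTGAA or TTCGAA), bound by the MuvB complexes that repress these genes in resting cells. The promoters of Nek2, Nusap1 and Ube2c, the consistent mitotic genes with the smallest p, are shown for that reason. They are the 250 bases before the RefSeq start site (GRCm38.p6, all on the plus strand). Capitals mark CCAAT or its reverse complement ATTGG, and either CHR sequence or its reverse complement, found by a search of both strands.
Nek2 (chr1:191821223-191821472): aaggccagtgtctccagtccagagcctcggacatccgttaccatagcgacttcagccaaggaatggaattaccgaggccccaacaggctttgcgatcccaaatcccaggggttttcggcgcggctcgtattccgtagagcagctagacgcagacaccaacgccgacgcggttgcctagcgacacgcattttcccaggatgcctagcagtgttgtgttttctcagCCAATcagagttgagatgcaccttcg
Nusap1 (chr2:119618048-119618297): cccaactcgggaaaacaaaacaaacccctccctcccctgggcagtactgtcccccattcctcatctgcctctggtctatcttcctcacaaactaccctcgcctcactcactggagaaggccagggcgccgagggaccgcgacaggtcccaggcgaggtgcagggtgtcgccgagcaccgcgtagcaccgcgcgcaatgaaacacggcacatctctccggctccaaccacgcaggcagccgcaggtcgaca
Ube2c (chr2:164769679-164769928): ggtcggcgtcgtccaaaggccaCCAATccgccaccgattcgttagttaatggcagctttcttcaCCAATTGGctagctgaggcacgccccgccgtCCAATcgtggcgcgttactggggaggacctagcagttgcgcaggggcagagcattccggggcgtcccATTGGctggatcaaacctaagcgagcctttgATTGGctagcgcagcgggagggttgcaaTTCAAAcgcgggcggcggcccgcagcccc
Ube2c held 6 CCAAT matches, of which 2 on opposite strands overlap, and 1 CHR match 29 bases before the start. Nek2 held 1 CCAAT match, 26 bases before the start. In the window of Nusap1 these letters were not found. Of the 50 listed mitosis genes 42 had a RefSeq promoter in the table used. CCAAT was found in 71.43% of them and in 36.14% of the 10864 tested genes with a promoter, CHR in 33.33% and 12.56%, and both in 26.19% and 4.925%. Over the 55 consistently lower genes with a promoter the shares were 67.27% for CCAAT, 29.09% for CHR and 21.82% for both. Over 75 consistently higher genes they were 17.33%, 16.0% and 2.667%. A match is a run of letters and not a shown binding site.

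The spindle motors and kinetochore genes moved with these. Kif11, the motor that pushes the spindle poles apart, stood at 1.97, 2.13 and 1.498 CPM at 21 months and 7.49, 7.31 and 5.66 CPM at 3 months (-1.86 ± 0.25, edgeR adjusted p = 0.0191). Cenpf, of the outer kinetochore, stood at 3.23, 2.67 and 2.41 CPM at 21 months and 11.8, 16.8 and 10.6 CPM at 3 months (-2.23 ± 0.32, adjusted p = 0.0211). Cenpe, the kinetochore motor, stood at 1.63, 1.66 and 1.498 CPM at 21 months and 6.10, 6.95 and 4.83 CPM at 3 months (-1.90 ± 0.32, adjusted p = 0.0308). None of the 3 overlapped between the ages. Mki67, which encodes the Ki-67 marker of cycling cells (chromosome 7, 135689784 to 135716361), stood at 13.0, 10.4 and 8.85 CPM at 21 months and 54.3, 55.2 and 44.1 CPM at 3 months (-2.25 ± 0.32, adjusted p = 0.0202). Tpx2, a spindle assembly factor, fell by 2.16, Hmmr, a spindle-pole protein, by 2.08, Knstrn, of the spindle and kinetochore, by 1.98 and Iqgap3, a scaffold protein of the list, by 2.04 on the log2 scale, and each was consistent. Mki67, Nusap1, Nek2 and Kif11 kept their calls with 21-month replicate 3 alone, as did Cdk1 and Prc1, and the other 22 consistent mitotic genes did not.

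Cyclins and their kinase fell as well. Ccna2, cyclin A2, stood at 2.04, 1.84 and 1.09 CPM at 21 months and 6.51, 6.67 and 6.003 CPM at 3 months (-1.94 ± 0.36, edgeR adjusted p = 0.0400). Ccnb1, cyclin B1, stood at 0.408, 0.396 and 0.318 CPM at 21 months and 1.96, 3.19 and 1.59 CPM at 3 months (-2.55 ± 0.35, adjusted p = 0.0202), and Cdk1, the kinase that it activates, at 1.08, 1.77 and 0.772 CPM at 21 months and 5.82, 5.39 and 4.49 CPM at 3 months (-2.10 ± 0.30, adjusted p = 0.0202). Ccnb1, Cdk1 and the other genes named here beyond the named-gene rule of the methods were picked after their values had been seen. Each of the 3 was lower in every 21-month library than in any 3-month library. The list members that were not called included Aurka, Plk1, Aurkb and Bub1, all with negative values between -1.67 and -1.29, and Pttg1 (0.08) and Anln (0.17). Anln, an actin-binding protein of the cleavage furrow, stood at 12.7, 4.97 and 3.72 CPM at 21 months, highest in the prostate library, and Top2a, topoisomerase II alpha, at 14.7, 6.49 and 4.90 CPM there and 33.7, 25.8 and 20.5 CPM at 3 months (-1.61 ± 0.39, adjusted p = 0.0645). Its highest 21-month value was also in replicate 1, and the part of the prostate RNA in these values was not tested.

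**Figure D3:**
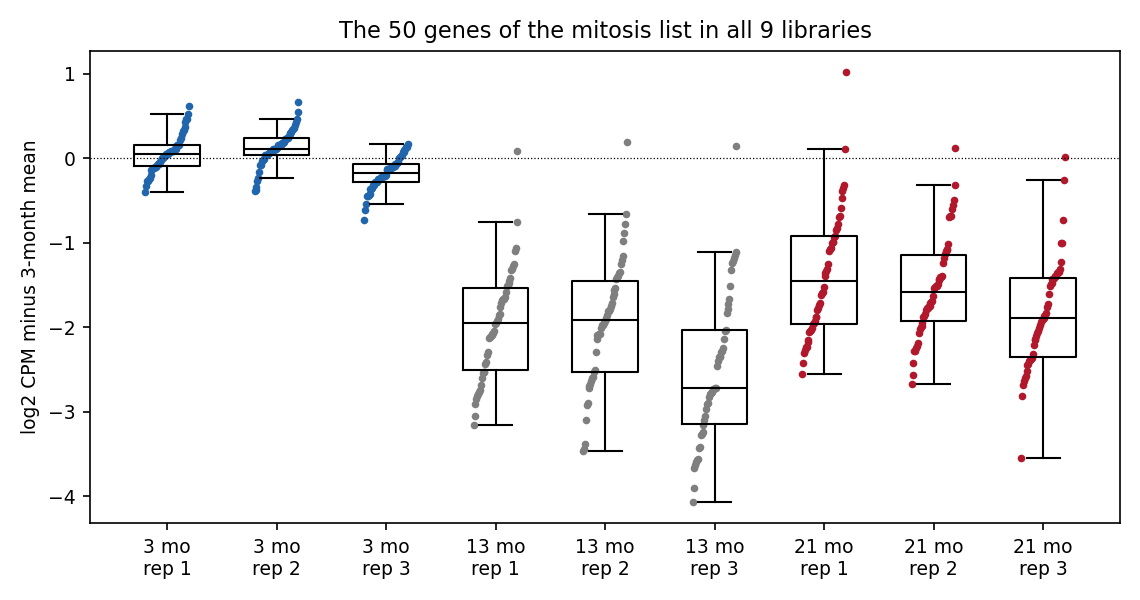
Change of each of the 50 mitosis genes from its 3-month mean (log2 CPM) in all 9 libraries, in order of age; points are genes, boxes show quartiles and whiskers the range up to 1.5 times the quartile span. The medians were 0.05, 0.11 and -0.17 in the 3-month libraries, -1.95, -1.92 and -2.72 in those of 13 months, and -1.46, -1.58 and -1.89 in those of 21 months.

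The 13-month libraries, which share the 3-month samples as their baseline, held these transcripts at low levels too. Nek2 stood at 0.473, 0.313 and 0.403 CPM and Mki67 at 8.34, 7.77 and 2.95 CPM in the 13-month replicates 1 to 3, and the medians of the mitosis list there were -1.95, -1.92 and -2.72. Both genes had 13-month values under those of 3 months, and Mki67 had 21-month values above all those of 13 months.

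Of 36 listed DNA replication genes 35 were tested, 3 were called lower and 0 higher, and the median was -0.65, with 1 positive value. At an unadjusted p under 0.05 edgeR put 19 lower and 0 higher. DESeq2 called 9 of them lower and limma-voom 1. With library totals alone the median was -0.01, against 0.62 for all genes. Clspn, claspin, which relays replication stress to the checkpoint, stood at 0.594, 0.541 and 0.545 CPM at 21 months and 3.23, 1.63 and 2.21 CPM at 3 months (-2.07 ± 0.40, edgeR adjusted p = 0.0426). Pole, the catalytic subunit of DNA polymerase epsilon, stood at 1.45, 1.41 and 1.27 CPM at 21 months and 4.66, 2.77 and 3.45 CPM at 3 months (-1.40 ± 0.25, adjusted p = 0.0376). Rrm2, of ribonucleotide reductase, was called but not consistent (-0.94 ± 0.19). The 21-month values of Clspn and Pole lay within a narrow band, while the 3-month values of both were highest in replicate 1. The helicase genes Mcm2 to Mcm7 were not called, with values between -0.81 and -0.19, and Pcna, the sliding clamp, had -0.26.

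Hist1h3b, Brca1 and Fanci, chosen after their values were seen, were among the consistent falls outside these lists. Hist1h3b, a replication-dependent histone gene of the chromosome 13 cluster, stood at 1.08, 0.829 and 0.863 CPM at 21 months and 4.49, 3.33 and 3.04 CPM at 3 months (-1.97 ± 0.35, edgeR adjusted p = 0.0366). Hist1h3a fell by 1.86, Hist1h3c by 1.68, Hist1h3h by 1.70 and Hist1h2ai by 1.90 on the log2 scale. These genes are near-identical copies, and reads that fit several of them may have been shared out or dropped. Brca1, of homologous recombination, stood at 1.56, 1.51 and 1.27 CPM at 21 months and 5.41, 2.41 and 3.93 CPM at 3 months (-1.44 ± 0.31, adjusted p = 0.0497). Fanci, of the Fanconi anaemia pathway, fell by 1.88. All of them were lower in each 21-month library than in any 3-month library.

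The 3 largest fitted falls, those of Igf2bp1, H60b and Gdpd2, lay outside the cell division lists. Gdpd2, a glycerophosphodiester phosphodiesterase (ENSMUSG00000019359, chromosome X, 100729873 to 100738895), stood at 0.483, 1.01 and 0.636 CPM at 21 months and 15.5, 9.22 and 10.5 CPM at 3 months (-4.03 ± 0.51, edgeR adjusted p = 0.0161). Dgat2l6, an enzyme of the diacylglycerol acyltransferase family (chromosome X, 100524838 to 100546144), stood at 1.71, 4.83 and 8.40 CPM at 21 months and 31.6, 28.7 and 29.4 CPM at 3 months (-2.60 ± 0.41, adjusted p = 0.0272). Its 21-month values were lowest in the prostate library and highest in replicate 3, and still below all of 3 months. On chromosome X the mitotic kinesin gene Kif4 lies between them, 79.6 kb from Dgat2l6 and 2.66 kb from Gdpd2, and Kif4 fell by 2.31. The X chromosome held 7 of the 74 consistently lower genes (9.46%) and 3.13% of the tested genes. Neb, the giant actin-binding protein nebulin of muscle (chromosome 2, 52136647 to 52378474), stood at 17.1, 21.2 and 36.8 CPM at 21 months and 248, 179 and 204 CPM at 3 months (-3.07 ± 0.35, adjusted p = 0.0141). It was the 1 called gene of 9 tested skeletal muscle markers, whose median was -0.17 (0.46 with library totals alone, below the 0.62 of all genes). Among the others Acta1, skeletal actin, had -0.33 and Ttn, titin, 2.83. Tnnt2, cardiac troponin T, which is not in that list, fell by 1.80.

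H60b and Raet1d, which encode ligands of NKG2D, a receptor of NK cells, both fell. H60b (chromosome 10, 22158586 to 22288849) stood at 0.0371, 0.216 and 0.318 CPM at 21 months and 3.97, 2.98 and 2.48 CPM at 3 months (-4.05 ± 0.50, edgeR adjusted p = 0.0153). Raet1d, 71.7 kb away, stood at 0.186, 0.216 and 0.454 CPM at 21 months and 2.42, 2.55 and 1.17 CPM at 3 months (-2.86 ± 0.54, adjusted p = 0.0426). Both overlap Raet1e in the annotation, and Raet1d belongs to a family of near-identical genes, so that the counts of both are uncertain. Igf2bp1, an mRNA-binding protein of fetal and dividing cells, stood at 0.0371, 0.144 and 0.545 CPM at 21 months and 4.26, 3.48 and 4.002 CPM at 3 months (-4.06 ± 0.57, adjusted p = 0.0202). In 21-month replicate 1, H60b and Igf2bp1 lay below the floor of 3 counts, which was 0.111 CPM there, and in replicate 3 both were still under all values of 3 months.

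Of 19 listed genes for secreted proteins of the epithelium 17 were tested, and 3 had a positive value. At an unadjusted p under 0.05 edgeR put 2 higher and 4 lower, and DESeq2 called 3 lower and limma-voom 1. Over all tested genes edgeR called 2.02%. The 1 edgeR call of the list was Wfdc15b, a protease inhibitor of the whey acidic protein family (chromosome 2, 164214454 to 164221660). It stood at 22.7, 19.4 and 28.5 CPM at 21 months and 76.1, 64.6 and 66.1 CPM at 3 months (-1.55 ± 0.15, edgeR adjusted p = 0.00656), and at 31.0, 28.6 and 31.6 CPM at 13 months. All its 21-month values were under those of 3 months. The list's median was -1.01, and by library it was -2.48, -1.02 and -0.31 in 21-month replicates 1 to 3. Svs5, an abundant seminal vesicle protein, was not called, at 43918, 106190 and 175890 CPM at 21 months and 174900, 206880 and 197960 CPM at 3 months (-0.83 ± 0.62). Eppin, a protease inhibitor known from the surface of sperm, stood at 0.149, 0.108 and 0.272 CPM at 21 months and 1.27, 1.14 and 1.24 CPM at 3 months (-2.78 ± 0.42, adjusted p = 0.0246). Kcns1, a potassium channel subunit, fell by 3.08. Among the consistent genes alone, Kcns1, Wfdc15b, Eppin and Ube2c are neighbours in this order on chromosome 2, with gaps of 43.3, 367 and 176 kb. Svs5, which was not called, lies between Wfdc15b and Eppin. Chromosome 2 held 11 of the consistently lower genes (14.9%) and 7.601% of the tested genes. Trpv6, an epithelial calcium channel that also stands in the prostate list, was called lower but was not consistent (30.9, 26.3 and 64.8 CPM at 21 months, 153, 106 and 112 CPM at 3 months).

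Immunoglobulin segments had the largest fitted rises among the consistent genes. Of 268 annotated immunoglobulin segments 27 passed the filter, 14 were called higher and 0 lower, and all 14 were consistent. Segments with few or no counts at 3 months could pass the filter only through older libraries and could hardly have been called lower, so nothing is read from their common direction. DESeq2 called 21 of them higher and limma-voom 10. Igkc, the constant segment of the kappa light chain (ENSMUSG00000076609, chromosome 6, 70726435 to 70726966), stood at 189, 118 and 84.5 CPM at 21 months and 0.633, 2.34 and 0.276 CPM at 3 months (6.94 ± 0.74, edgeR adjusted p = 0.00988). Ighm, the IgM heavy chain segment (chromosome 12, 113418558 to 113422730), stood at 412, 284 and 159 CPM at 21 months and 3.46, 9.29 and 2.42 CPM at 3 months (5.82 ± 0.69, adjusted p = 0.0153). Igha, the IgA heavy chain segment, stood at 6.80, 4.32 and 16.6 CPM at 21 months and 0.288, 0.0710 and 0.552 CPM at 3 months (4.89 ± 0.81, adjusted p = 0.0297). Igkc and Ighm were highest in the prostate library and Igha in replicate 3, and none of the 3 overlapped between the ages. The 13-month values lay between, with 15.8, 4.96 and 5.24 CPM for Igkc and 42.5, 11.7 and 16.9 CPM for Ighm.

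Other segments had no count at all at 3 months. Ighg2b, of the IgG2b heavy chain, stood at 16.0, 3.603 and 20.1 CPM at 21 months, at least 202-fold higher by its mean, where the bound takes 3 counts summed over the 3-month group (0.0653 CPM). Its edgeR adjusted p was 0.0426. Igkv3-2, a kappa variable segment, stood at 17.9, 4.25 and 10.7 CPM at 21 months, at least 168-fold higher. Iglc2, a lambda constant segment, stood at 2.82, 2.20 and 2.22 CPM, at least 37.0-fold higher, and its near-identical neighbour Iglc3 at 1.78, 0.757 and 3.59 CPM, against 0, 0 and 0.0690 CPM at 3 months. Heavy chain, kappa and lambda segments were each present in all 3 libraries of 21 months, as the rule requires of consistent segments. Of the 14 called segments 9 were still called with replicate 3 alone, and limma-voom ended the calls of Igha, Ighg2b, Igkv3-2 and Iglc3. In all, these segments made up 0.124%, 0.0693% and 0.0358% of the counts in the 21-month libraries, against 0.000416%, 0.00128% and 0.000367% in those of 3 months. Red blood cell markers, a sign of blood, took 0.0107%, 0.0189% and 0.00413% at 21 months and 0.00400%, 0.00768% and 0.00373% at 3 months, and their part in the immunoglobulin values was not tested.

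Of 16 plasma cell markers 14 were tested, 5 were called higher and 0 lower, and the median was 0.92. Of the 14, 9 had a positive value. At an unadjusted p under 0.05 edgeR put 7 higher and 1 lower, and DESeq2 called 6 higher and limma-voom 3. The 5 edgeR calls were the 3 segments above, Jchain and Irf4. Jchain, which links IgM and IgA polymers (chromosome 5, 88519809 to 88527891), stood at 37.2, 21.7 and 22.8 CPM at 21 months and 0.288, 0.922 and 0.138 CPM at 3 months (5.94 ± 0.69, edgeR adjusted p = 0.0153). Irf4, a transcription factor of plasma cells and lymphocytes, stood at 2.82, 3.96 and 1.41 CPM at 21 months and 0.518, 0.639 and 0.345 CPM at 3 months (2.44 ± 0.45, adjusted p = 0.0400). Both were higher in every 21-month library than in any of 3 months. Not called were Xbp1 (-0.29), Sdc1 (-0.03) and Txndc5 (-0.56), which the secretory epithelium may share, and its part in their values was not tested. For B cells 6 of 16 markers were tested and 2 were called, with a median of 2.35. Cd22, an inhibitory B cell receptor, stood at 3.94, 1.98 and 0.545 CPM at 21 months and 0, 0.0710 and 0.207 CPM at 3 months (4.53 ± 0.96, adjusted p = 0.0490), and Cd37, a tetraspanin of lymphocytes, at 2.90, 2.52 and 1.45 CPM at 21 months and 0.749, 0.568 and 0.552 CPM at 3 months (1.86 ± 0.35). The defining markers Ms4a1 and Cd79a were too sparse to test. Ms4a1 had 97, 27 and 3 counts in 21-month replicates 1 to 3 and 0 in each library of 3 months. Cd79a had 50, 21 and 3 counts at 21 months and 2, 0 and 1 at 3 months. Cd22, Ms4a1 and Cd79a were thus all highest in 21-month replicate 1 and lowest of that age in replicate 3, in which Igkc, Ighm and Igha still lay above all of 3 months. The transcription factor genes Ikzf3 and Pou2f2 of the lymphocyte line rose by 2.37 and 2.69 on the log2 scale.

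**Figure D4:**
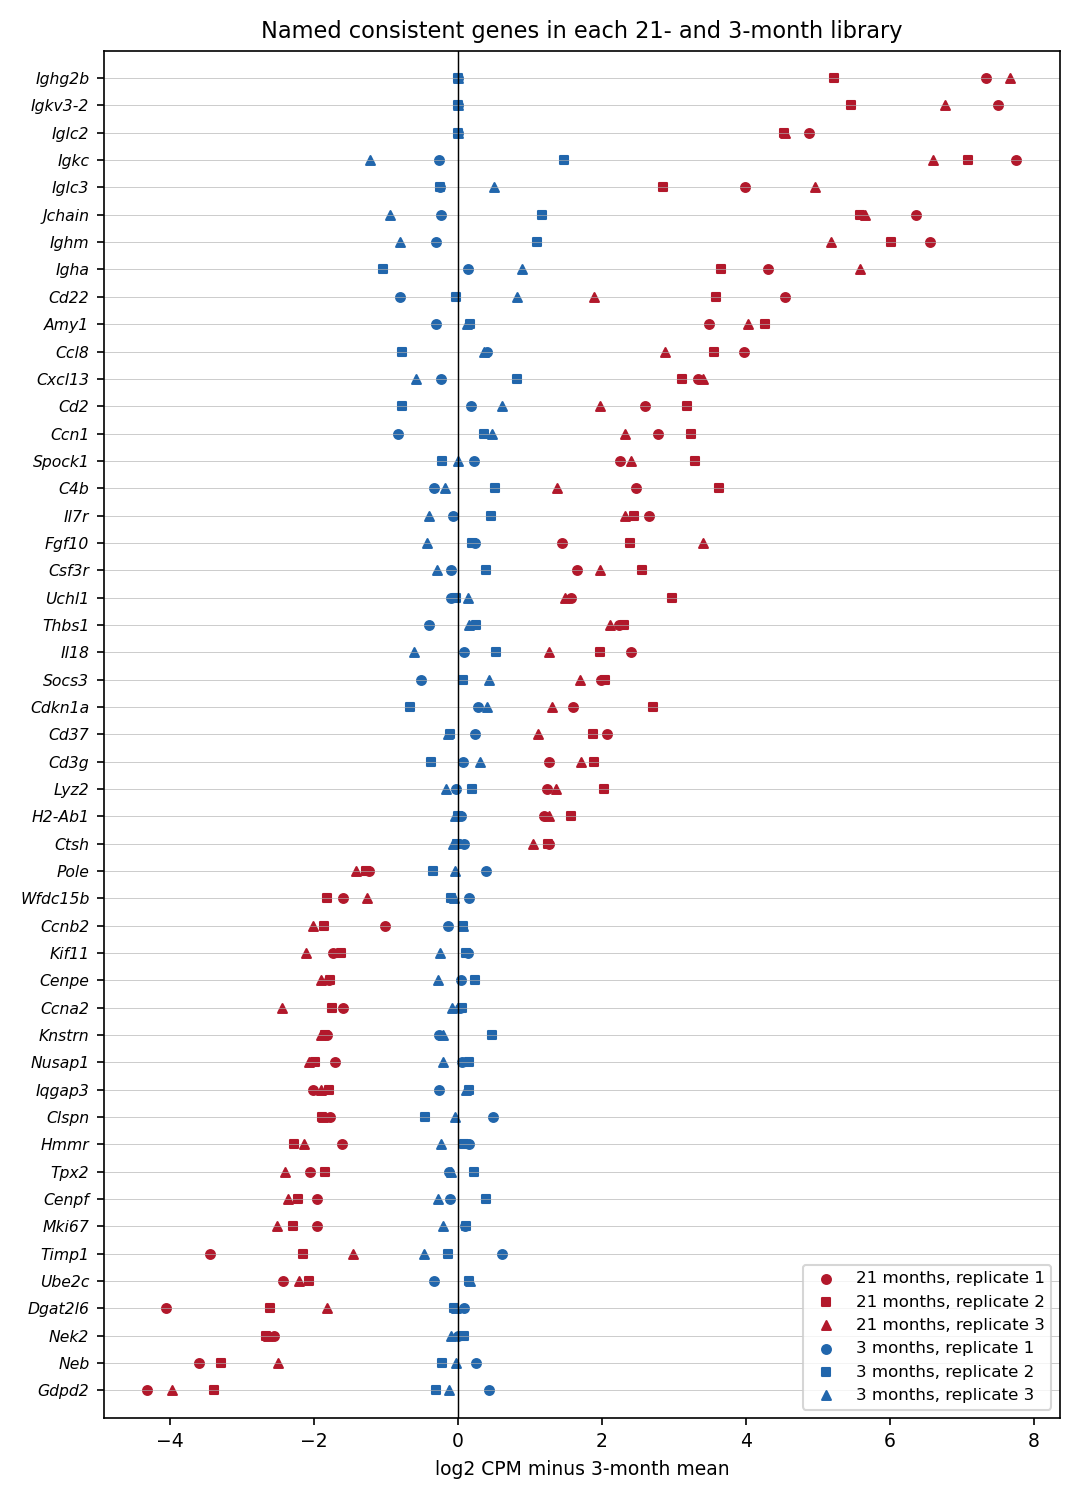
Consistent genes chosen by the named-gene rule and described here, ordered by their log2 fold change, with each of the 21-month (red) and 3-month (blue) libraries shown as log2 CPM minus the 3-month mean. By the choice of the genes no red point overlaps the blue points of its row; most mitotic genes have red points close together, while Dgat2l6, C4b, Ighg2b and Cd22 have widely spread ones.

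Of 26 T and NK cell markers 22 were tested, and all 22 had a positive value. EdgeR called 5 higher, all from low levels, and 0 lower. At an unadjusted p under 0.05 it put 18 higher and 0 lower. The list's median was 1.79, and by library 1.51, 2.02 and 1.28. DESeq2 called 14 of them higher and limma-voom 1. Il7r, the receptor for interleukin 7 on resting T cells and innate lymphoid cells (chromosome 15, 9505788 to 9530176), stood at 3.602, 3.10 and 2.81 CPM at 21 months and 0.461, 0.710 and 0.345 CPM at 3 months (2.65 ± 0.34, edgeR adjusted p = 0.0162). Cd3g, of the T cell receptor complex, stood at 1.97, 3.10 and 2.72 CPM at 21 months and 0.806, 0.568 and 0.966 CPM at 3 months (1.72 ± 0.34, adjusted p = 0.0426), and Cd3e rose by 2.37. Cd2, an adhesion receptor, stood at 1.67, 2.56 and 1.04 CPM at 21 months and 0.230, 0.0710 and 0.345 CPM at 3 months (2.99 ± 0.57, adjusted p = 0.0426). No library of 21 months overlapped those of 3 months in these genes. The 13-month values of Il7r were 2.37, 2.61 and 1.39 CPM and those of Cd3g 2.25, 2.97 and 1.52 CPM. Not called were the CD8 chains Cd8a (2.02) and Cd8b1 (1.84), Cd4 (0.91), the granzyme Gzmb (0.30) and the NK receptor Ncr1 (0.33). Among consistent genes outside the list, Ptprc, the pan-leukocyte antigen CD45, stood at 39.9, 48.7 and 28.2 CPM at 21 months and 12.9, 10.9 and 14.4 CPM at 3 months (1.61 ± 0.26, adjusted p = 0.0276). Rasgrp1, which passes on the T cell receptor signal, had 4.23, 4.07 and 4.13 CPM at 21 months and 0.864, 0.851 and 1.45 CPM at 3 months (1.97 ± 0.32), with almost equal values in the 3 older libraries. Gimap3 rose by 1.94, Cd69, an early activation marker, by 2.82, the chemokine receptor Cxcr3 by 2.59 and the inhibitory receptor Lag3 by 3.58. The calls of Cd2 and Cd3g ended under limma-voom, with only the 6 libraries and with replicate 3 alone, and that of Il7r ended with replicate 3 alone.

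Of 23 macrophage and monocyte markers 22 were tested, and 21 of these had a positive value. EdgeR called 4 higher and 0 lower, and put 20 higher and 0 lower at an unadjusted p under 0.05. The list's median was 1.09, with library medians of 0.72, 1.60 and 0.82. DESeq2 called 13 higher and limma-voom 1. Lyz2, lysozyme of myeloid cells (chromosome 10, 117277331 to 117282321), stood at 46.2, 79.3 and 50.2 CPM at 21 months and 19.1, 22.2 and 17.4 CPM at 3 months (1.58 ± 0.23, edgeR adjusted p = 0.0202), and kept its call with replicate 3 alone. Adgre1, the macrophage antigen F4/80, was called but moved by only 0.73 in replicate 1 (7.24, 16.9 and 13.8 CPM at 21 months, 5.70, 4.04 and 3.52 CPM at 3 months), and Fcgr3, an Fc receptor, rose by 1.12. Lyz2 and Fcgr3 were highest in replicate 2, the fat library, whose part in these values was not tested. Csf3r, the receptor for granulocyte colony-stimulating factor, was the 1 called gene of 6 tested neutrophil and mast cell markers (0.817, 1.62 and 1.04 CPM at 21 months, 0.173, 0.284 and 0.138 CPM at 3 months, 2.53 ± 0.45). Of 8 tested dendritic cell markers 0 were called by edgeR, 6 had an unadjusted p under 0.05, all higher, and DESeq2 called 1. Their median was 0.91.

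Of 13 listed genes for antigen presentation through MHC class II 11 were tested, and 10 of these had a positive value. EdgeR called 5 higher and 0 lower, and put 10 higher and 1 lower at an unadjusted p under 0.05. The median was 1.16, with 0.92, 1.51 and 0.74 by library. Limma-voom also called 5 higher and DESeq2 9. H2-Ab1, the beta chain of I-A (ENSMUSG00000073421, chromosome 17, 34257689 to 34269419), stood at 54.4, 70.6 and 57.2 CPM at 21 months and 24.5, 23.7 and 23.05 CPM at 3 months (1.35 ± 0.14, edgeR adjusted p = 0.00988), and was the 1 consistent member. H2-Eb1, of I-E, stood at 47.9, 74.6 and 52.7 CPM at 21 months and 23.4, 28.0 and 27.2 CPM at 3 months (1.16 ± 0.17), and Cd74, the invariant chain, at 94.1, 142 and 95.3 CPM at 21 months and 42.8, 54.3 and 52.8 CPM at 3 months (1.15 ± 0.18). Ctss, the cathepsin that trims the invariant chain, rose by 1.21 and H2-Aa, the alpha chain of I-A, by 1.11. These 4 missed the rule because replicate 1 moved by 0.83 to 0.92, and in H2-Aa (0.93) and Cd74 (0.94) replicate 3 also moved by under 1. Their groups did not overlap. Ciita, the master activator of class II genes, was not called (1.33 ± 0.36, adjusted p = 0.0755). Among 18 tested genes of MHC class I and the immunoproteasome 1 was called, H2-Q6 (rise of 1.44), and the median was 0.42. H2-Q2, a class I gene outside that list, fell by 0.91 (adjusted p = 0.0484). The interferon list gave 1 call among 36 genes, Gbp2, a guanylate-binding protein (rise of 1.04), with a median of 0.46. EdgeR called 2.02% of all tested genes, and nothing is read from the single calls of the class I and interferon lists.

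Complement and chemokine genes gave a few calls each. Of 20 tested complement genes 5 were called higher and 0 lower, with a median of 0.98. DESeq2 called 10 higher and limma-voom 0, where edgeR put 14 higher at an unadjusted p under 0.05. C4b, of the classical pathway, stood at 33.3, 74.1 and 15.5 CPM at 21 months and 4.66, 8.51 and 5.17 CPM at 3 months (2.75 ± 0.54, edgeR adjusted p = 0.0426), with its highest value in the fat library. It has a near-identical copy in the MHC region, so that its reads may be shared. The C1q chains C1qa, C1qb and C1qc rose by 1.07, 1.17 and 1.21 and were not consistent. In all 3, replicate 1 (0.71 to 0.85) and replicate 3 (0.93 to 0.98) moved by under 1. The fifth called gene was Cd55, a complement inhibitor on cell surfaces (rise of 0.96). Of 16 tested chemokines 2 were called, both consistent. Cxcl13, which draws B cells into follicles (chromosome 5, 95956951 to 95961068), stood at 4.53, 3.86 and 4.72 CPM at 21 months and 0.288, 0.710 and 0.207 CPM at 3 months (3.45 ± 0.49, adjusted p = 0.0202). Ccl8, a ligand for monocytes and lymphocytes (chromosome 11, 82115185 to 82116799), stood at 4.49, 3.32 and 2.04 CPM at 21 months and 0.288, 0.0710 and 0.276 CPM at 3 months (3.89 ± 0.48, adjusted p = 0.0153). The 21-month values of Cxcl13 were close to each other in the 3 libraries, and both chemokines kept their calls with replicate 3 alone. The 13-month values were 0.296, 1.20 and 0.671 CPM for Cxcl13 and 1.18, 1.83 and 1.07 CPM for Ccl8. The list had a median of 0.70, and Cxcl9 (1.34), Cxcl10 (0.45) and Ccl5 (0.92) were not called. Il18, an inflammasome cytokine, was the 1 called of 13 tested cytokines (1.82, 1.33 and 0.772 CPM at 21 months, 0.288, 0.426 and 0.138 CPM at 3 months, 2.19 ± 0.46), and it shares bases with Bco2 on the other strand. With 2.02% called over all tested genes, nothing is read from a single call in the cytokine list. Casp1, the protease that processes Il18, was among the consistent genes and rose by 1.47, and Vcam1, an adhesion molecule for leukocytes, rose by 1.55.

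Thbs1 and Ccn1 of the matrix lists rose in all 3 libraries of 21 months, as did Spock1, which is in none of them. Thbs1, thrombospondin 1 (ENSMUSG00000040152, chromosome 2, 118111876 to 118127133), stood at 52.6, 55.2 and 48.1 CPM at 21 months and 8.35, 13.1 and 12.3 CPM at 3 months (2.21 ± 0.19, edgeR adjusted p = 0.00557). Its 21-month values lay within a narrow range, the 13-month libraries stood at 10.6, 10.6 and 15.04 CPM, and of 22 alternatives 1 ended the call, the fit without 3-month replicate 3 (adjusted p = 0.0585). Ccn1, a matricellular protein induced by serum and stretch, stood at 9.54, 13.2 and 6.90 CPM at 21 months and 0.691, 1.70 and 1.86 CPM at 3 months (2.82 ± 0.55, adjusted p = 0.0426). Spock1, the proteoglycan testican 1, stood at 7.58, 15.7 and 8.44 CPM at 21 months and 1.79, 1.28 and 1.52 CPM at 3 months (2.78 ± 0.39, adjusted p = 0.0202). None of these 3 genes overlapped between the ages. Timp1, an inhibitor of matrix metalloproteinases, went the other way, at 1.56, 3.96 and 6.45 CPM at 21 months and 27.4, 16.2 and 12.9 CPM at 3 months (-2.25 ± 0.44, adjusted p = 0.0426). Col4a3, a basement membrane collagen outside the lists, fell by 0.93 (adjusted p = 0.0426). EdgeR called 1.26% of all tested genes higher and 0.766% lower. Of 41 tested collagen and matrix genes 2 were called higher and 1 lower, Lama2, of laminin (fall of 0.83). The list's medians were -0.29, 1.12 and -0.03 in replicates 1 to 3, highest in the fat library. The major collagens were not called, with 0.02 for Col1a1 and -0.97 for Col3a1. The list of matrix proteases and their inhibitors held 21 tested genes, of which 1 was called higher and Timp1 lower, with a median of 0.78. At an unadjusted p under 0.05 edgeR put 9 of them higher and 3 lower. Fn1, fibronectin, had 2.14, with 155, 511 and 403 CPM at 21 months and 49.8, 88.3 and 104 CPM at 3 months, and was not called.

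EdgeR called 2.02% of all tested genes. In the list of senescence and p53 targets 2 of 27 tested genes were called higher and 0 lower, with a median of 0.30. Among these was Cdkn1a, the cell cycle inhibitor p21, at 3.45, 7.57 and 2.81 CPM at 21 months and 1.32, 0.639 and 1.45 CPM at 3 months (2.01 ± 0.43, edgeR adjusted p = 0.0497). The call stood near the threshold, and 11 of 21 alternatives ended it. Cdkn2a, of p16 and p19ARF, did not pass the filter, and its counts were 4, 4 and 14 in the 21-month libraries, against 4, 2 and 1 in those of 3 months. The p53 targets Mdm2 (0.03), Ccng1 (0.03) and Bax (-0.06) were not called. Tnfrsf10b, a death receptor, stood at 1.78, 1.69 and 1.41 CPM at 21 months and 0.518, 0.568 and 0.345 CPM at 3 months (1.76 ± 0.27, adjusted p = 0.0258). Among 20 tested immediate-early genes 1 was called, Socs3, the feedback inhibitor of cytokine signalling, with 2.41, 2.52 and 1.95 CPM at 21 months and 0.346, 0.568 and 0.759 CPM at 3 months (2.05 ± 0.36, adjusted p = 0.0329). The list's median was 0.74, and Fos (1.23) and Egr1 (3.23) were not called. With 2.02% called over all tested genes, nothing is read from the single call of the immediate-early list.

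Amy1, Fgf10, Creb3l1, Myoc, Apod and Ctsh were among the other rises. Amy1, a salivary-type amylase (ENSMUSG00000074264, chromosome 3, 113555710 to 113606699), stood at 48.0, 82.6 and 70.1 CPM at 21 months and 3.40, 4.75 and 4.62 CPM at 3 months (3.98 ± 0.49, edgeR adjusted p = 0.0153), and at 93.3, 85.6 and 24.2 CPM at 13 months. It has close copies in the genome and shares bases with Rnpc3. Fgf10, a growth factor that mesenchyme sends to epithelium (chromosome 13, 118669791 to 118792115), stood at 9.62, 18.5 and 37.6 CPM at 21 months and 4.09, 3.97 and 2.55 CPM at 3 months (2.62 ± 0.52, adjusted p = 0.0426), and at 41.4, 52.1 and 21.0 CPM at 13 months. The antisense gene Gm16263 within it had 1.19, 2.70 and 3.63 CPM at 21 months and 0.518, 0.355 and 0.483 CPM at 3 months (2.44 ± 0.48), and reads of the pair cannot be told apart without the strand. Fgf10 and Amy1 kept their calls with replicate 3 alone. Creb3l1, a membrane-bound transcription factor of the secretory pathway (chromosome 2, 91982328 to 92024502), stood at 3.56, 2.77 and 3.04 CPM at 21 months and 0.518, 0.710 and 0.552 CPM at 3 months (2.39 ± 0.24, adjusted p = 0.00988), with no overlap and little spread. Pdgfc, of the platelet-derived growth factors, rose by 1.27 and was not consistent, and Fgf10 and Pdgfc were the 2 called genes of 35 tested growth factors and their binding proteins, whose median was 0.71. The called share over all tested genes was 2.02%. Myoc, myocilin, stood at 25.03, 52.5 and 82.2 CPM at 21 months and 6.57, 11.8 and 13.7 CPM at 3 months (2.32 ± 0.49), and Apod, a lipid-carrying apolipoprotein, at 34.5, 53.2 and 34.5 CPM at 21 months and 11.1, 13.9 and 13.0 CPM at 3 months (1.69 ± 0.24). Ctsh, a lysosomal protease, was the 1 consistent gene of the lysosome list, at 19.4, 19.2 and 16.6 CPM at 21 months and 8.58, 7.95 and 7.66 CPM at 3 months (1.19 ± 0.14, adjusted p = 0.0153). Of 28 genes of that list 4 were called higher, among them Gaa (rise of 0.62) and Ctsc (1.78), and the median was 0.15.

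Nerve markers were highest in the fat library. Of 6 tested nerve and Schwann cell markers 1 was called, Uchl1, a neuronal ubiquitin hydrolase, at 2.79, 7.53 and 2.63 CPM at 21 months and 0.806, 0.851 and 0.966 CPM at 3 months (2.30 ± 0.44, edgeR adjusted p = 0.0426). It passed the rule, although replicate 2 was far above the others. Snap25, a synaptic protein, stood at 0.780, 6.95 and 0 CPM in 21-month replicates 1 to 3 and at 0 at 3 months. Cntnap2, an axonal adhesion protein, had 5.05, 5.12 and 2.54 CPM at 21 months and 0.230, 0.639 and 0.966 CPM at 3 months (2.81 ± 0.50), and Cacna1e, a calcium channel, 2.45, 6.02 and 0.863 CPM at 21 months and 0.115, 0.284 and 0.207 CPM at 3 months (3.95 ± 0.76). Tubb3, a neuronal tubulin, had 1.26, 8.43 and 0.318 CPM at 21 months and 0, 0.213 and 0 CPM at 3 months. The nerve list took 0.00222% to 0.0138% of the counts at 21 months and 0.00141% to 0.00178% at 3 months, and its part in the values of Cntnap2 and Cacna1e was not tested. Of 11 tested adipocyte markers edgeR called 0, although all 11 had an unadjusted p under 0.05, and DESeq2 called 6 higher and limma-voom 0. Their median was 6.50, and by library 5.12, 8.89 and -1.12.

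Markers of the tissue's own cell types gave no edgeR calls. At the 2.02% called over all tested genes, lists as short as those below hold hardly any call, so nothing is read from their lack of calls. Of 18 smooth muscle, 16 fibroblast, 17 endothelial, 8 basal and 15 luminal epithelial markers tested, 0 were called in edgeR, with medians of 0.38, 0.44, 0.51, -0.40 and -0.18. At an unadjusted p under 0.05 there were 2, 2 and 1 higher ones among the first 3 lists and 3 and 3 lower ones among the epithelial lists, and DESeq2 called 2, 1 and 1 higher and 0 and 2 lower. With library totals alone the medians of the basal and luminal lists were 0.23 and 0.34, which is below the 0.62 of all genes. The fibroblast medians were -0.17, 0.91 and -0.13 in 21-month replicates 1 to 3 and the endothelial medians -0.03, 1.03 and 0.09, both highest in replicate 2. The lists of androgen response and steroid enzymes, lipid and cholesterol synthesis, heat shock and unfolded protein response, circadian clock and mitochondrial respiratory chain held 16, 24, 30, 19 and 22 tested genes and 0 calls in edgeR, with medians of 0.30, -0.08, 0.30, 0.09 and -0.09. At an unadjusted p under 0.05 they held 7, 7, 3, 4 and 2 genes, and DESeq2 called 2, 3, 0, 2 and 1. With library totals alone the lipid and respiratory medians were 0.55 and 0.53, again below all genes. Among 29 glutathione and antioxidant genes, Gpx3, a secreted glutathione peroxidase, was called higher (184, 99.96 and 50.8 CPM at 21 months, 22.5, 31.7 and 24.1 CPM at 3 months) and Gclc, of glutathione synthesis, lower (45.01, 42.4 and 62.6 CPM at 21 months, 111, 79.0 and 85.1 CPM at 3 months). Neither was consistent, Gpx3 because replicate 3 moved by 0.97 and Gclc because replicate 3 moved by 0.54.

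**Figure D5:**
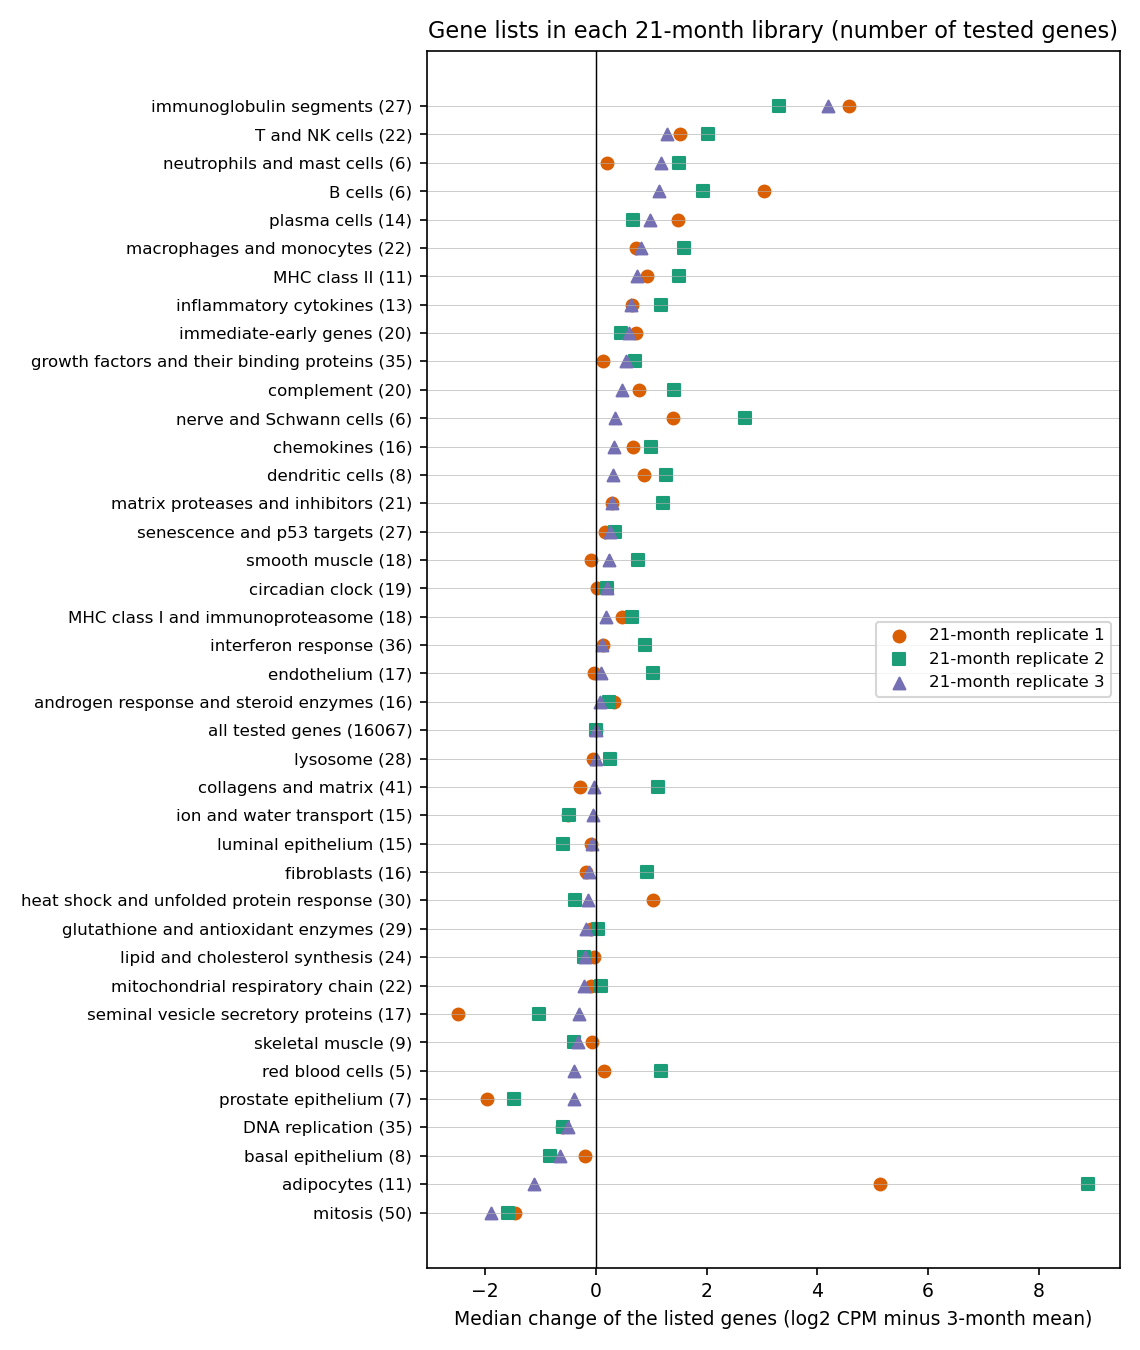
Median change of the tested genes of each list from the 3-month mean (log2 CPM) in each 21-month library, ordered by replicate 3, with the number of tested genes in brackets. The immunoglobulin and T cell lists lie right of 0 in all 3 libraries and the mitosis list left of 0 in all 3, while adipocyte markers stood at 5.12 and 8.89 in replicates 1 and 2 and at -1.12 in replicate 3.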

How the data were processed

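Total RNA of mouse seminal vesicle was sequenced, with TRIzol extraction per the labels. The authors deposited raw read counts per gene in 1 table of 9 libraries; reads were aligned with HISAT2 to GRCm38 (mm10) and counted with featureCounts, per the submitters' processing notes. Versions, annotation and strand setting are not given in the sources used here. Unstranded counting would mix overlapping genes, and reads shared by near-identical copies may be dropped or split.

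The 53379 identifiers were matched to GENCODE M21 (GRCm38) for 53274. The 105 others held 0.00839% of the counts. In edgeR 4.0.16 (R 4.3.3) genes were kept by filterByExpr (minimum count 10, minimum total 15), scaled by TMM, and tested by the quasi-likelihood F test with 1 coefficient per age over all 9 libraries, with Benjamini-Hochberg adjustment and a threshold of 0.05. The SE is the log2 fold change divided by the root of F. Changes per library are log2 CPM with a prior count of 2 minus the mean of the 3-month libraries. limma 3.58.1 and DESeq2 1.42.0 served as alternatives, beside other scalings, filters and left-out libraries. Floors of 3 counts cover counting error only.

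The members, gene lists and tests were chosen with earlier results of these data known. Named were the 12 higher and 12 lower consistent genes of largest smallest change (average log2 CPM of at least 1, no predicted genes), up to 4 consistent and 2 other called genes of each list, and a fixed set of marker genes; some of the genes so named are not reported here. Motifs were searched in RefSeq promoters (GRCm38.p6), using the first entry of each gene. Of the consistent mitotic genes, the 3 with the smallest p have their promoter shown. No pair of libraries of the same age was a duplicate, with chi-square values per degree of freedom of at least 3.44. Pairs across ages were not compared in this way.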

Additional observations from a re-analysis of the deposited data

How the results depend on the processing

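Against 202 higher and 123 lower genes, 116 and 74 of them consistent, DESeq2's Wald test called 964 higher and 539 lower, with 234 consistent higher genes, and limma-voom 66 higher, with 47 consistent higher genes. Scaling by library totals alone gave 5597 higher genes, 98 lower, 652 consistent higher and 34 consistent lower; DESeq2's size factors gave 203 and 120. Any gene with at least 1 count gave 544 higher genes and 202 consistent ones; at least 10 counts in all 9 libraries gave 39 and 30, with 25 and 21 consistent; and the 6 libraries alone gave 57 and 55, with 45 and 49 consistent. With the smallest change set to 0.5, 196 consistent higher genes were found, and with 2, 25 higher and 10 lower. With 21-month replicate 3 alone, where the lone library is taken to vary like the other ages, 38 and 19 genes were called, 37 and 18 of them consistent. Chosen after seeing the data, replicate 1 alone gave 1827 and 1421 (1405 and 739 consistent) and replicate 2 alone 2333 and 1231 (1869 and 377 consistent). Leaving out 1 library at a time, the counts ran from 0 to 1408 higher, from 0 to 941 lower, from 0 to 692 consistent higher and from 0 to 242 consistent lower. The causes were not tested.

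All consistent genes that could be tested kept their direction under every alternative, which the rule had largely fixed, and DESeq2 called all 190. Limma-voom called 108 of them and the 6 libraries alone 82 of 185. Of 73 named genes, limma-voom ended 30 calls, the 6 libraries alone 34 and 21-month replicate 3 alone 44. Fabp4 and Adipoq, never called at first, reversed with replicate 3 alone, to -1.09 (adjusted p = 0.622) and -5.42 (adjusted p = 0.637).

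The labels do not say whether libraries of the same number belong together. Deviations from the group means correlated by 0.05, 0.178 and -0.0030 between same-numbered libraries of replicates 1 to 3. The same-numbered 3-month library was the best match for 21-month replicates 1 and 2, while 21-month replicate 3 correlated best with 3-month replicate 1 (0.123). With the replicate block, 310 genes were higher and 132 lower, of which 126 and 72 were consistent, and 10 named calls ended.

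Depth limits the sparse genes: 13 consistent higher genes had a 21-month mean under 1 CPM. Of the consistent genes 0 kept their call in all 9 edgeR fits that left out 1 library, where unadjusted p-values under 0.05 numbered 2566 to 5223. Prostate or fat markers stood far above 3 months in 2 of the 3 libraries of 21 months.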

Other observations

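Genes too sparse or too uneven to be tested held 4.03% of the counts in 21-month replicate 1 and at most 0.303% in any other library. Among the 16067 tested genes, 198 stood more than 2 log2 units beyond the other libraries in 21-month replicate 1, 100 in replicate 2 and 8 in replicate 3, and in 61 both replicates 1 and 2 stood so far beyond replicate 3. Heat shock and unfolded protein response genes had library medians of 1.04, -0.38 and -0.14 in 21-month replicates 1 to 3, and luminal epithelial markers took 0.303%, 0.153% and 0.172% of the counts there, against 0.169%, 0.158% and 0.159% in 3-month replicates 1 to 3.

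Cdkn2a, of p16 and p19ARF, had 35, 4 and 0 counts in 13-month replicates 1 to 3, so that its highest library in the series was not one of 21 months. Of the 190 consistent genes, 77 higher and 41 lower ones stood in none of the lists. Chromosome 12, which carries the immunoglobulin heavy chain locus, held 9 of the 116 consistently higher genes (7.76%), against 3.76% of the tested genes. Most of these were Ighm, Igha and other heavy chain segments already counted among the immunoglobulin calls. The share thus largely repeats those calls, and nothing further is read from it.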
